A study of Oryza sativa Japonica Group with 38 samples.

Results

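The loci described here are 696 short noncoding loci of rice (Oryza sativa, japonica) with EPlOSAG identifiers, out of 7231 loci in the 2 deposited lists of long noncoding RNAs (lncRNAs). They were chosen from the annotated list by 3 properties: an identifier with the EPlOSAG prefix, an exon length under 300 nt, and no other locus of that list at the same position on the opposite strand. These properties use no measured value, but they were chosen with earlier results of these data known. The annotated list held 1849 EPlOSAG loci, of which 1038 short ones had such a twin on the opposite strand and 115 were 300 nt or longer. The other loci were 1873 with RAP identifiers and, in the second list, 3509 with XLOC identifiers.

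A noncoding transcript can be kept in a cell in several forms. RNAs made by RNA polymerase II usually end in a poly(A) tail, which marks most messenger RNAs and many lncRNAs, while structured RNAs, many transcripts of other polymerases and processing intermediates lack one. Small RNAs are the short products that Dicer-like enzymes cut from hairpins or double-stranded RNA, together with fragments of longer RNAs. In plants they guide the silencing of messenger RNAs and of repeated DNA, and several classes change under stress. A locus that is counted in a small RNA library therefore holds short reads that map inside it, and such a count does not tell whether an RNA of the whole locus was made.

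RNA came from seedlings grown for 2 weeks and exposed to cold at 4 °C, to drought by drying in air, to heat at 50 °C, to light of 50000 lux (high light) or to 300 mM NaCl (high salt). It also came from untreated seedlings, and from panicles, roots and leaves without treatment. Per the labels, the 3 organs also came from seedlings of 2 weeks, panicles included. The column headers call these young panicles, and their age was not checked. Small RNA, total RNA of nuclei, and poly(A)- and poly(A)+ RNA of whole cells were sequenced from each of the 9 conditions, in 38 libraries, to find noncoding RNAs that respond to stress. Drought had 2 libraries each of poly(A)- and poly(A)+ RNA, every other group had 1, and each group had 1 column in the files. The small RNA library of leaves has a conflict in its labels: its tissue field and the column header name leaves, whereas its title names seedlings. All comparisons of panicles or roots with leaves in small RNA rest on this 1 library. The files list noncoding loci, so the labelled organs were not checked against marker genes.

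Levels are FPKM, fragments per kilobase of exon scaled to the reads of the library, as deposited. The value of 1 read was recovered from these levels in every column. It differed between the lists in 4 of the 36 columns by at least 5.82%, so those columns cannot be taken to hold 1 library in both lists. These disputed columns (poly(A)- RNA, nuclear RNA and poly(A)+ RNA of panicles, and poly(A)+ RNA of leaves) stayed out of all results unless named. The other 32 columns had depths between 39.7 and 85.8 M reads (M, 1e6 reads) for small RNA and between 24.6 and 105 M for the 3 long kinds, of which the nuclear RNA of untreated seedlings was the shallowest. On a locus of 240 nt, 3 reads equal 0.146 to 0.315 FPKM in small RNA and 0.119 to 0.508 FPKM in long RNA. Counting intervals are exact 95% Poisson intervals and cover counting error only.

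All 696 loci had 1 exon. Their lengths ran between 200 and 298 nt with a median of 231 nt and quartiles of 214 and 250 nt. They lay on both strands, 341 on the plus and 355 on the minus strand, and on all 12 chromosomes, with 30 on chromosome 9 and 89 on chromosome 4. Of these loci, 597 overlapped no other locus of either list, 64 overlapped an annotated locus on the opposite strand without sharing both ends with it, and 38 overlapped one on the same strand. Only 2 runs of 3 equally long loci lay close together on a chromosome, and their mean small RNA levels were at most 0.0102 FPKM. Nearest under the length limit were EPlOSAG00000010303 with 298 nt and EPlOSAG00000030821 with 295 nt, with mean small RNA levels of 38.2 and 0 FPKM. Nearest over it were EPlOSAG00000044567 with 301 nt and EPlOSAG00000046942 with 303 nt, with 0.162 and 1.35 FPKM.

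The short one-strand loci were found in small RNA and rarely in long RNA. A level of 1 FPKM was reached in at least 1 small RNA library by 382 loci (54.9%), in nuclear RNA by 14 (2.01%), in poly(A)- RNA by 18 (2.59%) and in poly(A)+ RNA by 20 (2.87%). In small RNA alone 372 loci reached it, in long RNA alone 14, in both 10 and in neither 300. No long RNA read was counted for 417 of the loci (59.9%) in any of the 23 undisputed long RNA libraries. In small RNA 62 loci were listed at 0 in all 9 libraries, and 44 were listed at 0 in every undisputed column. At the other end, 146 loci were at 1 FPKM or more in all 9 small RNA libraries and 72 reached 10 FPKM in at least 1. Over all 7231 loci, 18.9% reached 1 FPKM in small RNA and 56.0% in long RNA. The short loci paired on both strands had a like pattern, with 51.9% in small RNA and 0.385% in long RNA, but only 10 of the 1038 were at 1 FPKM in all 9 small RNA libraries.

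**Figure D1:**
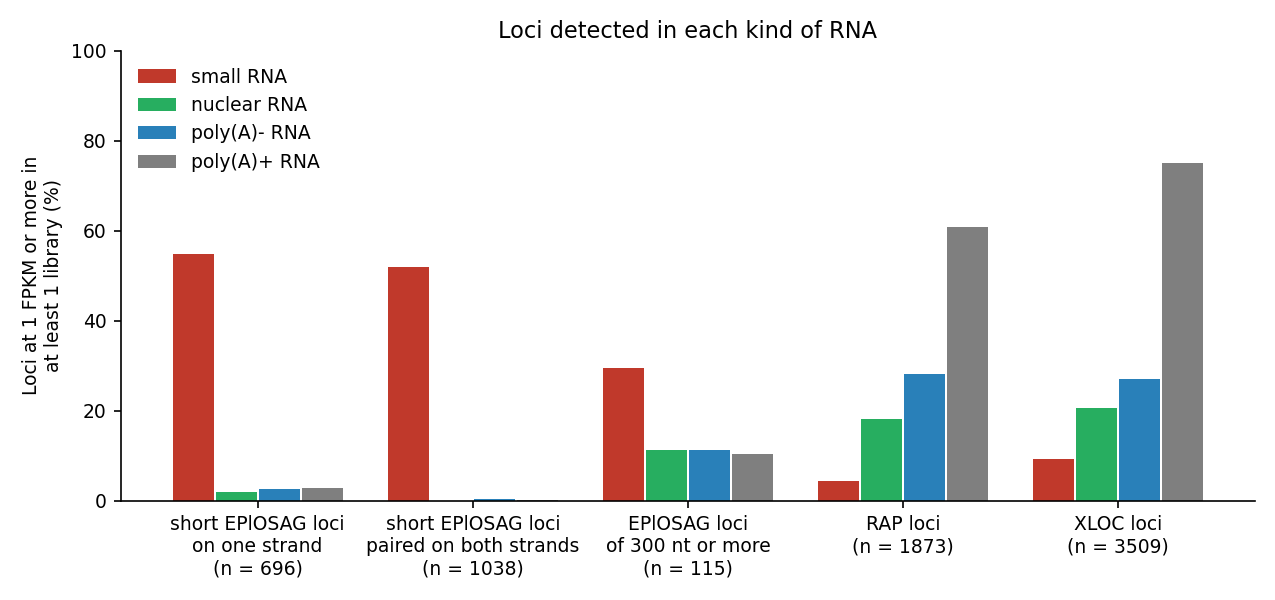
Share of loci that reached 1 FPKM in at least 1 undisputed library of a kind, for the short one-strand EPlOSAG loci and 4 other sets of loci. The bars of the short one-strand loci stand at 54.9% in small RNA, 2.01% in nuclear RNA, 2.59% in poly(A)- RNA and 2.87% in poly(A)+ RNA, whereas RAP and XLOC loci are highest in poly(A)+ RNA.

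The level in small RNA spread widely between loci. The median of the 696 mean levels was 0.653 FPKM, and the highest was 201 FPKM for EPlOSAG00000051181. Identifiers that begin with EPlOSAG00000044 were the most frequent, with 283 of the loci, 191 of them at 1 FPKM in small RNA, and they took 49.2% of the small RNA reads of all 696. Detection differed with length without a steady trend. Of the 107 loci of 240 to 249 nt, 25.2% reached 1 FPKM in small RNA, against 74.0% of the 77 loci of 230 to 239 nt and 72.2% of the 72 loci of 250 to 259 nt. Summed, the 696 loci made up 0.0160% to 0.0558% of a small RNA library and 0.000799% to 0.0366% of a long RNA library.

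**Figure D2:**
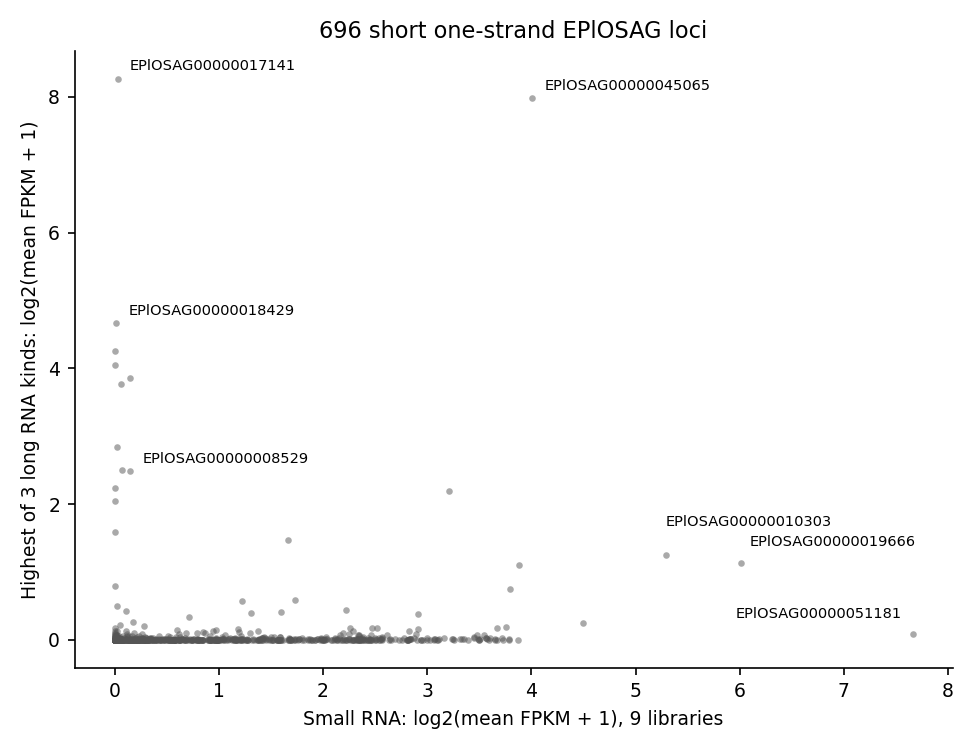
Each point is 1 of the 696 loci, with its mean small RNA level over 9 libraries across and the highest of its 3 mean long RNA levels upward, both as log2(FPKM + 1). Most points lie along one axis or the other. EPlOSAG00000045065 is high on both, EPlOSAG00000051181 on the small RNA axis and EPlOSAG00000017141 on the long RNA axis.

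To see in which form of RNA each locus was present, limma compared small RNA with each long kind on log2(FPKM + 1) over both lists, with condition as a block. A locus was called at 2-fold with an adjusted p (Benjamini-Hochberg) up to 0.05. Against poly(A)+ RNA, 321 of the 696 loci had 1 FPKM in at least 3 libraries, 277 of them were higher in small RNA and 11 lower. Over all 3385 loci tested, 14.8% were higher and 70.6% lower. Against poly(A)- RNA 288 of 339 were higher and 5 lower, beside 33.9% and 30.7% of all 1535 tested. Against nuclear RNA 289 of 336 were higher and 3 lower, beside 48.3% and 21.1% of all 1136 tested. In the 3 comparisons 304, 325 and 329 of the tested short loci passed the filter through small RNA alone, so that these had to differ, and the counts are read only with that in mind. Without a filter, over all 696 loci, 280, 289 and 290 were higher and 11, 5 and 3 lower, while 7.05%, 7.23% and 7.65% of all 7231 loci were higher and 33.2%, 6.5% and 3.36% lower. The median difference over all tested loci was -1.61 against poly(A)+ RNA, -0.34 against poly(A)- RNA and 0.97 against nuclear RNA. When each library was centred on its own median, the count against nuclear RNA was 148 higher and 5 lower. The share over all loci was not counted with centring, so this count shows nothing particular to the short loci. The p-values measure only the spread between single libraries of 7 or 8 conditions, part of which limma pools from other loci. The weight of that pool for poly(A)+, poly(A)- and nuclear RNA was 12.2, 11.6 and 15.4 degrees of freedom. The locus itself had 6, 7 and 7. Nothing in the labels says whether the libraries came from separate cultures.

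EPlOSAG00000051181 had the highest small RNA level of these loci. It lies on chromosome 6 (27674745-27674951, plus strand, 206 nt). Its small RNA level was 109 FPKM in cold, 904 in drought, 95.8 in heat, 84.8 in high light and 98.7 in high salt, against 49.7 in untreated seedlings. It was 82.8 FPKM in panicles and 54.5 in roots, against 331 in leaves. The drought and leaf libraries stood above the other 7, which lay between 49.7 and 109 FPKM. In long RNA the locus was listed at 0 in every poly(A)- library and never exceeded 0.196 FPKM in the undisputed columns. On the log2 scale small RNA was 7.01 above poly(A)- RNA and 6.74 above poly(A)+ RNA. These differences are given with no test, since the locus was named for its small RNA level and passed the filter through small RNA alone. The locus EPlOSAG00000051167, shifted by 1 base on the opposite strand, had at most 0.367 FPKM in small RNA, so that the reads were counted on one strand.

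EPlOSAG00000019666 was the next highest in small RNA (chromosome 12, 13405689-13405959, plus strand, 270 nt). It had 79.0 FPKM in cold, 72.2 in drought, 29.9 in heat, 27 in high light and 91.0 in high salt, against 47.6 in untreated seedlings. Panicles had 75 and roots 83.0 FPKM, against 67.7 in leaves. Heat and high light were the lowest of the 9 libraries and high salt the highest. Its long RNA levels averaged 0.252 ± 0.203 FPKM in nuclear RNA (SD, n = 8 conditions), 1.19 ± 0.753 in poly(A)- RNA (n = 8) and 0.168 ± 0.114 in poly(A)+ RNA (n = 7). Small RNA exceeded poly(A)- RNA in 8 of 8 conditions, by 4.82 on the log2 scale, given with no test for the same reason that it was named by this level.

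EPlOSAG00000010303 followed (chromosome 4, 24768361-24768659, plus strand, 298 nt). Its small RNA level was 32.9 FPKM in cold, 41.9 in drought, 25.6 in heat, 32.3 in high light and 28.4 in high salt, against 20.8 in untreated seedlings. It was 53.3 FPKM in panicles and 75.1 in roots, against 33.3 in leaves. Roots and panicles held the highest levels and untreated seedlings the lowest. It exceeded poly(A)- RNA in 8 of 8 conditions, by 3.98 on the log2 scale, again with no test.

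The next loci by small RNA level were less abundant. Besides EPlOSAG00000045065, which is described with the long RNAs and was lowest in high salt, each of the following was lowest in panicles. EPlOSAG00000044714 (chromosome 7, 1792931-1793162, minus strand) ran between 4.88 FPKM in panicles and 45 FPKM in untreated seedlings. EPlOSAG00000044589, EPlOSAG00000043950 and EPlOSAG00000044883 ran between 2.48 and 20.6, 3.46 and 20.1, and 3.50 and 26.1 FPKM, and were highest in untreated seedlings, roots and untreated seedlings. EPlOSAG00000043950 was listed at 0 in all 23 undisputed long RNA libraries.

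In long RNA, 24 of the 696 loci reached 1 FPKM, and a few of them carried much of the reads. Among these 24, the mean was highest in small RNA for 9, in nuclear RNA for 1, in poly(A)- RNA for 1 and in poly(A)+ RNA for 13. In poly(A)+ RNA, EPlOSAG00000017141 alone held between 32.9% and 84.1% of the reads of the short one-strand loci. EPlOSAG00000045065 held between 66.8% and 97.7% in nuclear RNA and between 78.0% and 96.3% in poly(A)- RNA. In poly(A)+ RNA the other short loci held most of the reads in heat, high salt and roots. The loci described next were named by their level in a long kind, so the adjusted p-values of their differences are a description and support nothing further. Between long kinds, limma took most of the spread behind these p-values from other loci. That pool weighed 187 degrees of freedom for poly(A)- against poly(A)+ RNA, beside 6 of the locus itself. For nuclear RNA it weighed 23.4 beside 6 against poly(A)+ RNA, and 137 beside 7 against poly(A)- RNA.

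EPlOSAG00000017141 (chromosome 2, 19472444-19472672, plus strand, 228 nt) was found mainly in poly(A)+ RNA. In small RNA it ran between 0 and 0.103 FPKM, in nuclear RNA between 0 and 1.81 FPKM and in poly(A)- RNA between 0 and 15.2 FPKM. Its poly(A)+ level was 440 FPKM in cold, 750 in drought, 83.1 in heat, 178 in high light and 107 in high salt, against 512 in untreated seedlings, and 79.7 in roots. Drought, untreated and cold seedlings were high and the other libraries lower, with counting intervals of 736 to 765 FPKM in drought and 501 to 522 FPKM in untreated seedlings that do not overlap. Poly(A)- RNA was lower than poly(A)+ RNA by 4.84 on the log2 scale (-4.84 ± 0.50, SE, limma adjusted p = 9.43e-16, lower in 7 of 7 conditions), and nuclear RNA was lower still (-6.96 ± 0.47, adjusted p = 3.34e-12, 7 of 7).

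Other loci shared this preference at lower levels. EPlOSAG00000018429 (chromosome 12, 23501888-23502093, plus strand, 205 nt) had 12.1 FPKM of poly(A)+ RNA in cold, 53.8 in drought, 18.3 in heat, 15.8 in high light and 17 in high salt, against 8.91 in untreated seedlings, and 44.6 in roots. Drought and roots stood above the other 5 libraries. EPlOSAG00000015299, EPlOSAG00000017089, EPlOSAG00000012250 and EPlOSAG00000017128 averaged 1.76, 0.886, 0.948 and 1.21 FPKM in poly(A)- RNA (n = 7 conditions). In poly(A)+ RNA EPlOSAG00000015299 averaged 18.1 ± 11.1 FPKM, EPlOSAG00000017089 15.6 ± 13.1, EPlOSAG00000012250 13.5 ± 7.77 and EPlOSAG00000017128 12.6 ± 6.41 FPKM (SD, n = 7 conditions). Each of these 4 was called lower in poly(A)- RNA than in poly(A)+ RNA, with that direction in 7 of 7 conditions. EPlOSAG00000017089 was listed at 0 in all 9 small RNA libraries.

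EPlOSAG00000045065 (chromosome 1, 24615787-24616027, plus strand, 240 nt) was the one locus abundant in small RNA, nuclear RNA and poly(A)- RNA alike. Small RNA ran between 7.16 and 29.1 FPKM, highest in roots. In nuclear RNA the 6 seedling libraries lay between 22.7 and 65.6 FPKM, with 177 FPKM in roots and 1489 FPKM in leaves. In poly(A)- RNA it had 125 FPKM in cold, 102 in drought, 130 in heat, 174 in high light and 152 in high salt, against 44.8 in untreated seedlings, and 896 in roots, against 397 in leaves. The leaf library was the highest of the nuclear kind and the root library the highest of the poly(A)- kind. Its poly(A)+ level stayed between 0.122 and 3.68 FPKM in 6 libraries but was 69.7 FPKM in high salt. Poly(A)- RNA exceeded poly(A)+ RNA in 7 of 7 conditions, by 5.26 ± 0.49 on the log2 scale (SE, limma adjusted p = 1.96e-18), and nuclear RNA exceeded it in 6 of 7, by 3.83 ± 0.57 (adjusted p = 7.61e-07). Nuclear RNA and poly(A)- RNA did not differ past the threshold (-1.01 ± 0.57, adjusted p = 0.144).

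EPlOSAG00000008529 (chromosome 1, 32751160-32751446, plus strand, 286 nt) was highest in nuclear RNA on average, with 4.6 ± 5.19 FPKM (SD, n = 8 conditions). Its nuclear level was 4.05 FPKM in cold, 3.03 in drought, 16.4 in heat, 4.33 in high light and 0.669 in high salt, against 1.85 in untreated seedlings. Roots had 0.133 FPKM, against 6.30 in leaves. The heat library was the highest and its counting interval of 14.4 to 18.6 FPKM did not overlap any other. Nuclear RNA was higher than poly(A)+ RNA by 1.30 ± 0.38 (SE, limma adjusted p = 0.00207, 6 of 7 conditions). Without heat the difference was 0.96, under 2-fold, and without a filter on low values the locus was not called. A shorter locus on the same strand inside it, EPlOSAG00000019633, was listed at 0 in all undisputed columns.

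**Figure D3:**
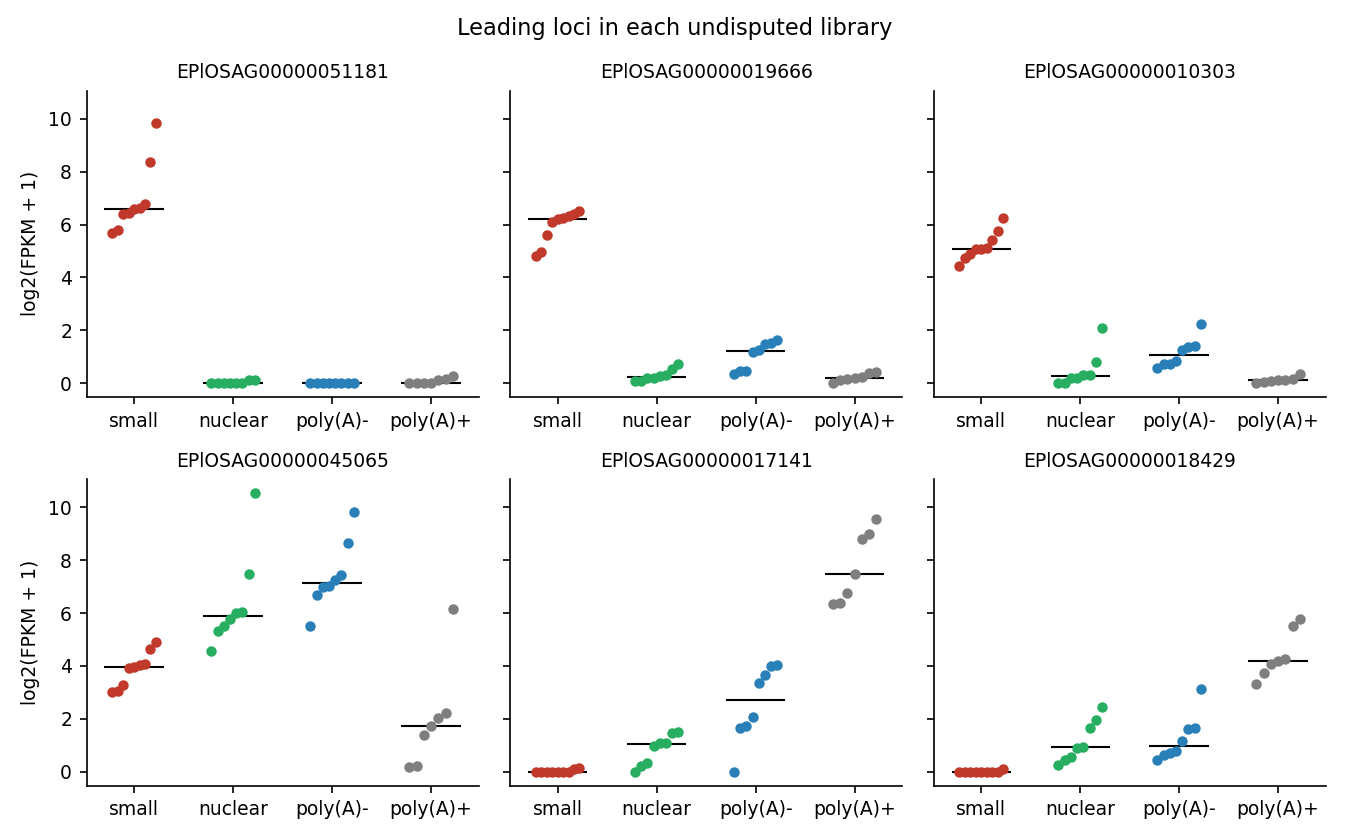
Level of 6 leading loci in every undisputed library, as log2(FPKM + 1). Each point is the library of 1 condition, sorted by value within a kind (9 small, 8 nuclear, 8 poly(A)- and 7 poly(A)+ libraries), and the line is the median. The upper 3 loci are high in small RNA, EPlOSAG00000045065 in nuclear and poly(A)- RNA, and EPlOSAG00000017141 and EPlOSAG00000018429 in poly(A)+ RNA.

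Between long kinds few of the short loci could be tested. Poly(A)- RNA was higher than poly(A)+ RNA for 1 of 18 and lower for 13, beside 4.2% and 74.5% of all 2859 loci tested. Nuclear RNA was higher than poly(A)+ RNA for 2 of 16 and lower for 12, beside 1.26% and 79.2% of all 2786 tested. Some of these short loci passed the filter through poly(A)+ RNA alone, so that they had to be lower. Their number was not counted. Of the 18, 2 passed without 1 FPKM in any poly(A)+ library, and of the 16 there were 0. Without a filter, 1 of the 696 was higher and 12 lower in poly(A)- RNA, beside 1.55% and 28.9% of all 7231, and 1 was higher and 11 lower in nuclear RNA, beside 0.318% and 30.1%. Centred on each library's median, these counts were 5 higher and 5 lower for poly(A)- RNA, and 3 higher and 5 lower for nuclear RNA. No share over all loci was counted with centring. The median differences over all tested loci that centring removed were -1.51 and -1.69. Nuclear RNA was higher than poly(A)- RNA for 0 of 13 by limma, and lower for 1, with the same counts at an unadjusted p of 0.05 and 2-fold, beside 0.938% and 16.8% of all 959 tested. That locus was EPlOSAG00000017141 (-1.72 ± 0.39, adjusted p = 2.21e-04, lower in 7 of 8 conditions). Without a filter, 0 of the 7231 loci were called in either direction.

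Across conditions, the small RNA levels of the short loci varied together. Of the 332 loci with 1 FPKM in at least 3 small RNA libraries, 212 were highest in untreated seedlings, 61 in high light, 28 in leaves and 18 in high salt, and 247 were lowest in panicles. Of the 471 other loci of the lists with 1 FPKM in as many small RNA libraries, 226 were highest in untreated seedlings, 89 in high light, 59 in leaves and 34 in high salt, and 218 were lowest in panicles and 99 in roots. Their median level was 1.62 FPKM in cold, 1.45 in drought, 2.19 in heat, 3.97 in high light and 3.31 in high salt, against 4.91 in untreated seedlings. It was 0.935 FPKM in panicles and 2.71 in roots, against 2.46 in leaves. The ratio to untreated seedlings had a median of 0.340 in cold, 0.330 in drought, 0.429 in heat, 0.823 in high light and 0.650 in high salt, and it was below 1 for 327, 327, 320, 253 and 286 of the 332 loci. The 471 other loci had medians of 0.379, 0.347, 0.523, 0.876 and 0.730, and 425, 429, 413, 301 and 358 of them were below 1. The lower levels were thus shared with the other loci. Panicles over leaves gave a median ratio of 0.336 in the short loci and 0.385 in the others, whereas roots over leaves gave 1.09 in the short loci, with 141 of 332 below 1, and 0.632 in the others, with 333 of 471 below 1. The others were not alike in this. Short paired loci had a median of 1.44 FPKM in leaves and 0.447 in roots, and EPlOSAG loci of 300 nt or more 11.1 and 6.46. XLOC loci had 1.94 and 1.53 FPKM, whereas RAP loci had 1.29 in leaves and 1.54 in roots. Each group has 1 small RNA library, so none of these ratios has a test, and fewer cells of a type and less RNA per cell cannot be told apart in such samples.

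**Figure D4:**
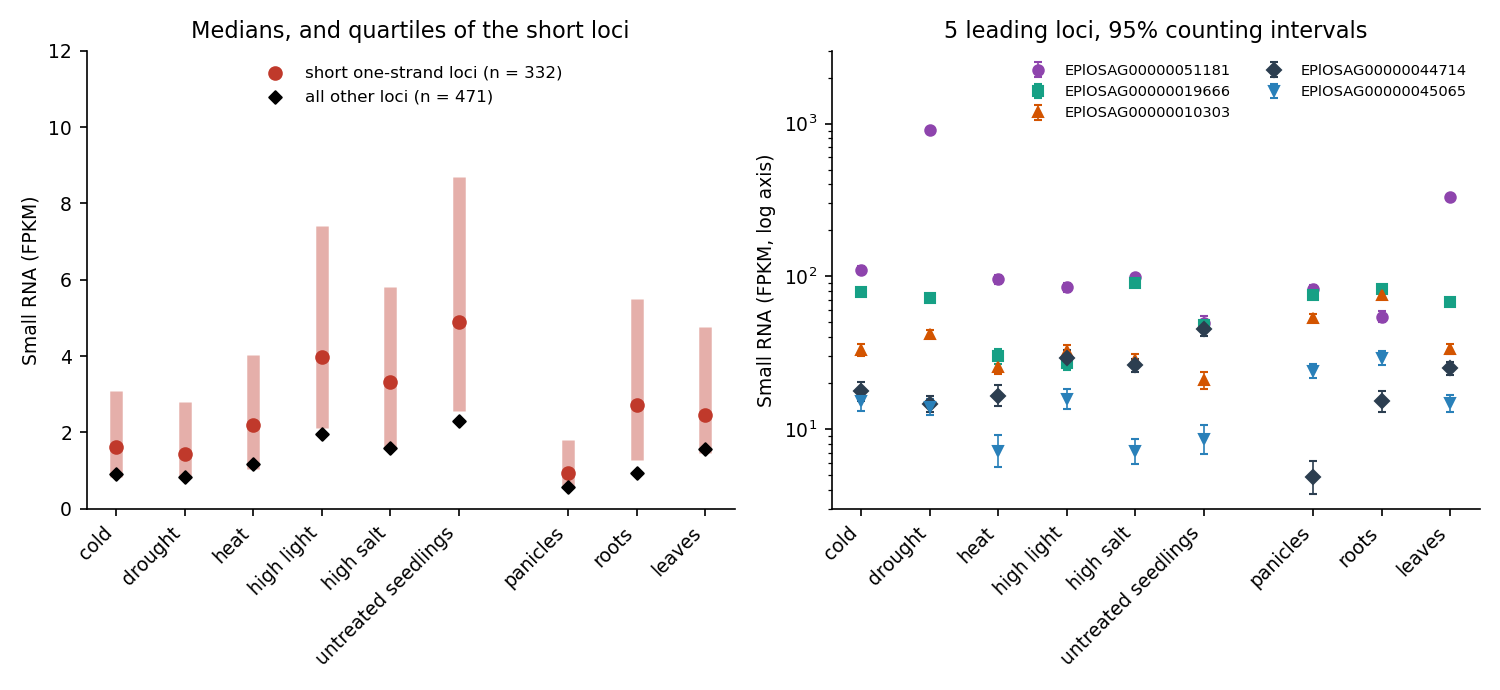
Left, median small RNA level of the 332 short loci with 1 FPKM in at least 3 libraries (circles, bars between the quartiles) and of the 471 other such loci (diamonds). Right, the 5 leading loci on a log axis with exact 95% counting intervals. The medians are lowest in panicles, while EPlOSAG00000051181 stands at 904 FPKM in drought and 331 FPKM in leaves.

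Single loci were then set against this shared shift. A locus was called at 2-fold after subtracting the median log2 difference of all loci, with 1 FPKM in 1 of the 2 libraries and counting intervals apart. That median was -0.85 in cold, -0.87 in drought, -0.65 in heat, -0.18 in high light and -0.39 in high salt. In cold 4 of 353 short loci were higher and 10 lower, beside 3.11% and 1.28% of all loci entered. In drought 4 of 352 were higher and 17 lower, beside 2.84% and 2.29%. In heat 1 of 353 was higher and 14 lower, beside 2.35% and 2.17%. In high light 3 of 375 were higher and 1 lower, beside 2.04% and 0.57%, and in high salt 2 of 357 were higher and 2 lower, beside 1.88% and 0.804%. As deposited, without the subtraction, 204 short loci were lower in cold, 212 in drought, 132 in heat, 8 in high light and 24 in high salt, and 1, 1, 0, 1 and 0 were higher. These counts include the shared shift. The share over all loci was not counted without the subtraction, so they show nothing particular to the short loci.

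The loci above the shared shift were few, and the 5 stresses share the untreated library. EPlOSAG00000051181 was higher in cold, drought, heat and high salt, by 1.97, 5.03, 1.58 and 1.37 on the centred log2 scale. In drought its interval of 890 to 918 FPKM rested on 15971 reads, against 45 to 54.8 FPKM from 406 reads in untreated seedlings. It held 46.3% of the reads of the short loci in the drought library. Without it, the short loci took 0.0216% of the drought library, against 0.0548% of the untreated one. EPlOSAG00000019666, EPlOSAG00000010303 and EPlOSAG00000045065 were the other 3 loci higher in cold and in drought, with 72.2, 41.9 and 14 FPKM in drought against 47.6, 20.8 and 8.61 FPKM in untreated seedlings. In high light 3 loci were higher. EPlOSAG00000044424 had 6.5 FPKM against 2.00 in untreated seedlings, EPlOSAG00000050701 10.2 against 4.64, and EPlOSAG00000044420 25.3 against 12.4.

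More loci lay below the shared shift than above it in cold, drought and heat. Of the 17 lower in drought, 12 had identifiers that begin with EPlOSAG00000040 or EPlOSAG00000041, as had 55 of the 352 short loci entered. Of the 14 lower in heat 8 had them, as had 55 of the 353 entered, and of the 10 lower in cold 2 had them, as had 55 of the 353 entered. These identifier groups were chosen after the values were seen and have no test. Among the lowest in drought, EPlOSAG00000040087 had 2.10 FPKM against 13 in untreated seedlings, and EPlOSAG00000041788 had 2.17 against 12.5. In heat EPlOSAG00000040375 had 2.30 FPKM against 11.3 in untreated seedlings. In high salt EPlOSAG00000041588 had 0.675 FPKM against 6.27, and EPlOSAG00000040899 had 1.03 against 5.31. In cold EPlOSAG00000044423 had 0.179 FPKM against 4.11, and EPlOSAG00000044479 had 1.58 against 9.79. Of these 7 loci, EPlOSAG00000040087, EPlOSAG00000040375, EPlOSAG00000041588 and EPlOSAG00000040899 were listed at 0 in all undisputed long RNA columns.

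Roots were set against leaves, with 1 library each. In roots 26 of 336 loci were higher and 16 lower than in leaves, beside 6.22% and 8.84% of all loci entered. As deposited, without subtracting the median of -0.26, 8 were higher and 22 lower, with no share over all loci counted. Of the 16 lower loci, 15 had 254 to 277 nt, and the other was EPlOSAG00000051181. Of the 90 loci of that length class that entered, 2 were higher in roots. This length class was set after the values were seen, by the shortest and longest of the 15 loci. The 15 loci had a median of 0.876 FPKM in roots (0.148 to 1.52) and 0.670 FPKM in panicles (0.123 to 1.34), against 5.48 FPKM in leaves (2.33 to 18.1). That they were lower in roots than in leaves was fixed by the call. In untreated whole seedlings their median was 4.25 FPKM. The most marked was EPlOSAG00000044960 (chromosome 3, 26959241-26959496, plus strand, 255 nt), with 1.45 FPKM in roots and 1.34 in panicles, against 18.1 in leaves. Its 6 seedling libraries lay between 3.15 and 13.8 FPKM. In poly(A)+ RNA the same locus had 9.99 FPKM in cold and 6.32 in untreated seedlings, and was listed at 0 in roots and drought.

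The 26 loci higher in roots were 7.74% of the short loci entered, near the 6.22% of all loci entered. They are described as a list and not as a trait of the short loci. They had a lower median length than the 16 lower ones. Their lengths ran between 200 and 298 nt with a median of 226 nt, and 15 of them had identifiers that begin with EPlOSAG00000039 to EPlOSAG00000042, as had 82 of the 336 short loci entered. They had a median of 4.18 FPKM in roots, against 1.68 FPKM in leaves, a direction fixed by the call. In untreated whole seedlings their median was 8.27 FPKM, in high light 6.38 and in high salt 4.79, all above that in roots. EPlOSAG00000042188 had 7.26 FPKM in roots against 2.14 in leaves, EPlOSAG00000041487 6.26 against 2.12, and EPlOSAG00000010303 75.1 against 33.3.

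**Figure D5:**
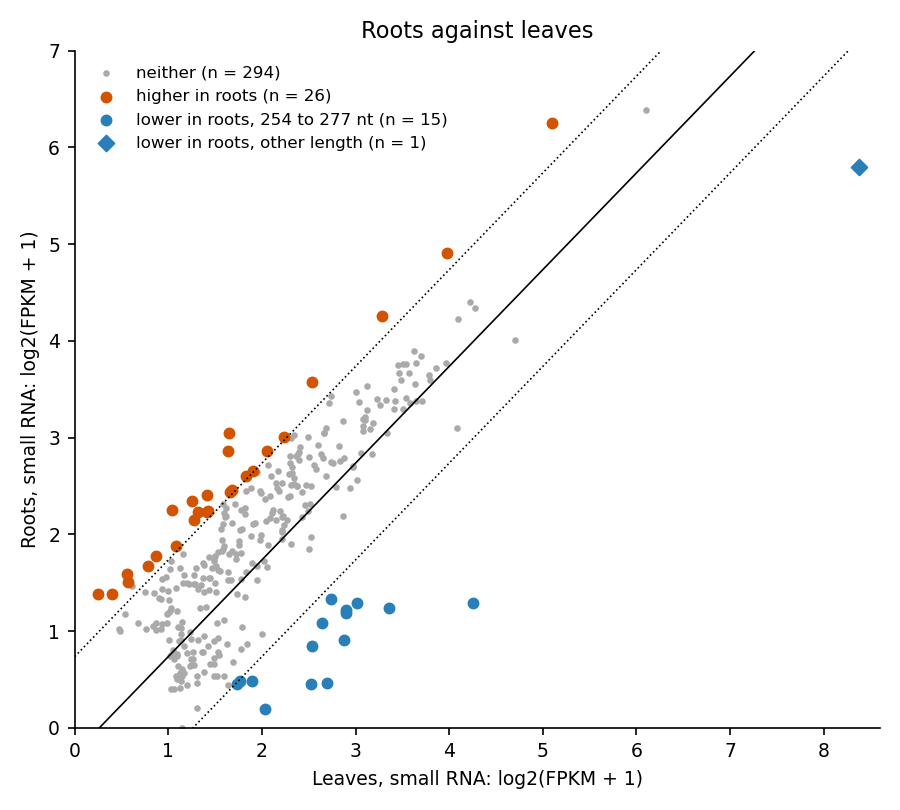
Small RNA of the 336 short loci with 1 FPKM in roots or leaves, as log2(FPKM + 1), leaves across and roots upward. The solid line is the median difference of all loci (-0.26) and the dotted lines are 2-fold to either side. The 26 loci higher in roots lie above, the 15 lower loci of 254 to 277 nt lie in a group below, and the diamond is EPlOSAG00000051181.

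Panicles gave the least small RNA of the short loci, and 4 of 313 were higher and 23 lower than in leaves, beside 7.68% and 4.34% of all loci entered. The median that was subtracted was -0.80, and as deposited 2 were higher and 142 lower. The deposited counts include that shared shift, and the share over all loci was not counted for them. Of the 23 lower loci, 19 had identifiers that begin with EPlOSAG00000044, as had 167 of the 313 short loci entered. Besides EPlOSAG00000044960, the lowest after centring was EPlOSAG00000044589, with 2.48 FPKM against 18.4 in leaves. The 4 higher were EPlOSAG00000017057, with 1.83 FPKM from 28 reads against 0.0532 from 1 read in leaves, EPlOSAG00000050744, with 3.01 against 0.682 FPKM, EPlOSAG00000010303 and EPlOSAG00000045065. EPlOSAG00000050744 was higher in panicles than in any other small RNA library.

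Many of the loci had equal lengths. The 696 loci had only 91 different lengths, so most of the 332 loci had to share one. Of the 332 loci, 309 shared their length with at least 1 other. Of 27 loci of 205 nt, 21 were among the 332, and their summed reads ran between 210 and 969. A set of 5 loci of 204 nt on chromosomes 1, 7, 10 and 11, chosen after their values were seen, had between 130 and 184 reads each in untreated seedlings and between 28 and 45 in panicles. They were EPlOSAG00000044716, EPlOSAG00000044742, EPlOSAG00000044747, EPlOSAG00000044751 and EPlOSAG00000044762. The sources used here do not say how reads that map to several places were counted, so the level of a single locus among such groups is uncertain.

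The small RNA profile of EPlOSAG00000051181 was then compared with those of other loci. Among 592 annotated loci with 1 FPKM in at least 3 small RNA libraries, the nearest short locus was EPlOSAG00000044968, with Spearman's rho of 0.483 over 9 libraries. The nearest other locus was OS12G0554300 with a rho of 0.533, so none of these annotated loci had a closely alike profile. The XLOC loci were not compared. OS12G0554300 had 14.6 FPKM in drought against 2.70 in untreated seedlings. As the highest among the 592 loci, this rho was picked and has no test. All points of such a profile share the depth of their library.

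In the classes that the authors deposited, 444 of the 696 loci were of low FPKM, 144 poly(A)+, 62 bimorphic and 46 poly(A)-. By location 535 were low expressed, 111 cytosolic, 42 nuclear and 8 bimorphic. Of the 382 loci with 1 FPKM in small RNA, 223 were in the class of low FPKM. The 144 loci of the poly(A)+ class had a median highest long RNA level of 0.0758 FPKM, and 14 of them reached 1 FPKM.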

How the data were processed

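RNA of 9 conditions was sequenced as 4 kinds in 38 strand-specific libraries, after removal of ribosomal RNA, with poly(A)+ and poly(A)- RNA parted on oligo(dT) beads, per the labels' protocols. The authors deposited 2 tables of lncRNA loci with FPKM values in 36 columns, per the file headers. All coordinates stand on the build IRGSP-1.0, and TopHat2 and DESeq2 were among the tools, per the submitters' processing notes, which give no version. The sources used here do not give counting rules or the handling of reads with several places. FPKM keeps the worth of 1 read: 99490 values up to 200 reads were checked, and 100% were whole within 0.05 reads. Reads and depths were recovered so, and counting intervals and floors of 3 reads rest on them. The count test on these reads was not run.

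A column was disputed where the worth of 1 read differed between the tables. Kinds were compared with limma 3.58.1 (R 4.3.3) on log2 values with 1 FPKM added, blocked by condition, over loci of both tables with 1 FPKM in at least 3 libraries. Calls needed an adjusted p of 0.05 and 2-fold. Conditions have 1 column each, so no test was run between them. Drought stands for 2 libraries of each poly(A) kind in 1 column. Tables were made with Python 3.11.15, numpy 2.4.6, pandas 2.3.3, scipy 1.17.1 and matplotlib 3.10.9. The limma comparisons were also run on simulated data with normal noise. Levels near 0 do not spread in that way, so that run adds no support to the calls. Fold changes on the log2(FPKM + 1) scale understate the change of low loci.

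The loci and rules were chosen with earlier results of these data known. Loci are named where they are the 8 highest in small RNA, the 4 highest in a long kind, the 2 most changed in each direction of a comparison, the leading loci of equal-length runs, next to the length limit, or most alike in profile to the highest. EPlOSAG00000017128, EPlOSAG00000012250, EPlOSAG00000044420, the overlapping loci and the 5 loci of 204 nt fall outside this rule and were named after their values were seen. No locus matched the RefSeq gene table (assembly ASM3414082v1), and no genome of this build was used here, so no sequences are shown.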

Additional observations from a re-analysis of the deposited data

Results flagged for a closer look

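EPlOSAG00000045065 was also high in columns that no comparison used. In the poly(A)- column headed young panicle it had 592.205 FPKM from 18814 reads, and in the nuclear column headed young panicle 2202.63 FPKM from 55173 reads. These values were picked out because they lie in disputed columns and far above the level of 3 reads there, 0.0944 and 0.120 FPKM. The disputed columns had the same values of 1 read in both lists, but in a different order. The value of the poly(A)- column recurred in the other list in the poly(A)+ column of leaves. The value of the nuclear column recurred there in the poly(A)- column of panicles. Which list has the right order cannot be told from the files.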

How the results depend on the processing

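Counts of loci at a level changed with the limit. At 10 FPKM, 72 loci remained in small RNA, 2 in nuclear RNA, 2 in poly(A)- RNA and 9 in poly(A)+ RNA. At 10 reads poly(A)- RNA had 28, and under 250 nt nuclear RNA had 9 and poly(A)- RNA 11. Small RNA was higher at 4-fold for 155 loci against nuclear RNA, 154 against poly(A)- RNA and 151 against poly(A)+ RNA. Where 1 FPKM was asked in as many libraries as one kind has, it was higher for 188 against nuclear RNA and 188 against poly(A)- RNA. Centred, it was higher for 148 against nuclear RNA and lower for 5, and lower for 6 against poly(A)+ RNA. A pseudocount of 0.1 made 5 lower against nuclear RNA and 8 against poly(A)- RNA. That stricter filter left 1 and 1 lower there, and 4-fold left 1 and 2. Between kinds, the share over all loci was counted under no alternative except the one without a filter.

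Nuclear over poly(A)- RNA gave 1 higher and 5 lower with the pseudocount of 0.1, 1 higher when centred, 0 lower without a filter and 0 lower at 4-fold. Nuclear over poly(A)+ RNA gave 1 higher without a filter, 1 at 4-fold and 1 under 250 nt, and 5 lower when centred. Poly(A)- over poly(A)+ RNA gave 3 higher with the pseudocount of 0.1, 5 when centred and 2 with the disputed columns, and 5 lower when centred and 7 at 4-fold. Leaving out 1 condition at a time, small RNA was higher for 273 to 300 loci against nuclear RNA, 271 to 299 against poly(A)- RNA and 264 to 287 against poly(A)+ RNA, and lower for 2 to 3, 4 to 6 and 11. Nuclear RNA against poly(A)- RNA gave 0 higher and 1 lower, nuclear against poly(A)+ RNA 1 to 2 and 10 to 12, and poly(A)- against poly(A)+ RNA 1 to 2 and 11 to 13.

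Without centring, the loci higher in small RNA numbered 1 (cold), 1 (drought), 0 (heat), 1 (high light), 0 (high salt), 2 (panicles) and 8 (roots). Those lower numbered 204 (cold), 212 (drought), 132 (heat), 8 (high light), 24 (high salt) and 142 (panicles). The share over all loci was not counted without centring or under the alternatives that follow. At 4-fold the counts were 0 and 0 in cold, heat, high light and high salt, 1 and 0 in drought, 2 and 1 in panicles and 0 and 2 in roots. With a pseudocount of 0.1, 23 were lower in cold, 10 in drought and 31 in roots, with 6 higher and 6 lower in high light and 4 higher and 11 lower in high salt. At 10 FPKM, 4 were lower in cold, 5 in heat, 0 in high light and 0 in high salt, with 2 higher and 13 lower in panicles and 4 higher and 2 lower in roots.

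Of the log2 differences of named loci, 1511 values under an alternative kept direction and call, 32 lost the call, 31 gained it and 15 changed sign. Centring turned small over nuclear RNA to -0.038 for EPlOSAG00000044236, -0.086 for EPlOSAG00000044968 and -0.049 for EPlOSAG00000050744. It turned poly(A)- over poly(A)+ RNA to 0.49 for EPlOSAG00000044960 and 1.17 for EPlOSAG00000044589, and nuclear over poly(A)+ RNA to 0.68 and 0.99. It turned nuclear over poly(A)- RNA to 0.30 for EPlOSAG00000018429, 0.36 for EPlOSAG00000017089 and 0.29 for EPlOSAG00000044960. That ratio also changed sign for EPlOSAG00000018429 without high salt (0.018) or roots (0.24), and for EPlOSAG00000017089 without cold (0.065), drought (0.041) or high salt (0.098). Over all such omissions it ran between -0.32 and 0.24 for EPlOSAG00000018429 and between -0.26 and 0.098 for EPlOSAG00000017089. The cause was not tested.

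Kinds were paired by condition, and without that block the 12 counts of calls between kinds stayed of like size, though not necessarily equal. By replicate number, no paired analysis was possible because only drought has such numbers and its libraries share 1 column. Low read counts limit single loci: in panicles 3 reads equal a level that many of the loci do not exceed.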
